A study of Chrysanthemum x morifolium with 6 samples.

Results

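A group of 217 transcript features from leaves of Chrysanthemum x morifolium, cultivar Jinba, had FPKM values in every control leaf library and was listed at 0 in every cold leaf library. They were chosen by their deposited FPKM values from 365669 features: 0 in all 3 cold libraries, at least 1 in each of the 3 control libraries and a control mean of at least 10. The 0 in cold and the control level are therefore the selection and not a finding, and what follows describes what else the members share. FPKM counts fragments relative to the length of the feature and to all mapped fragments of the library, so a level of 10 can rest on many fragments of a long feature or on few of a short one. Feature names come without gene symbols, sequences or lengths. No gene function can therefore be given for any member, and the identity of the tissue could not be checked against leaf marker genes.

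Cold leaves came from plants exposed to 4 °C for 24 h and then to -4 °C for 4 h. Control leaves came from plants kept under normal conditions. All plants were about 1 month old, raised in tissue culture for 30 days under a 16 h photoperiod (25 °C by day and 22 °C by night), potted and acclimated for 5 days. Each group has 3 libraries. The labels describe the material of a treatment as a leaf mixture from 3 biological replicates and speak of 2 samples in total for RNA sequencing, so the 3 libraries of a group may come from the same mixture. The spread between them, and every p-value below, may then be technical.

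Plants of temperate climates respond to chilling with a transcription cascade in which cold-activated CBF factors switch on protective genes, while transcripts for growth and photosynthesis commonly decline. A transcript can leave the leaf because its gene is no longer transcribed, because its RNA is degraded faster, or because splicing moves to another isoform. Cultivated chrysanthemum is polyploid and carries several similar copies of many genes, and short reads from such copies can be assigned to one assembled feature or another. In whole leaves, fewer cells of a type and less RNA per cell cannot be told apart.

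The FPKM sums of the 6 libraries were close to each other, and the spacing of low values gave an estimate of relative depth. With control 1 set to 1, it was 0.908, 0.845 and 0.903 for cold 1 to 3, against 0.731 and 0.868 for control 2 and control 3. The cold libraries lay below control 1 and above control 2, and cold 2 also lay below control 3. These estimates take the commonest ratio between low values as the ratio of depths, and that of control 2 rested on 29 of 953 features. The number of fragments behind a single value is unknown.

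Most members were of modest level in control leaves. Their control means had a median of 15.1 FPKM, with quartiles at 11.8 and 23.3. Of the 217, 143 averaged from 10 to 20 FPKM, 66 from 20 to 50 and 8 at least 50, of which 2 exceeded 100. Together they summed to 0 FPKM in each cold library, as selected, and to 4629, 4660 and 4728 FPKM in control 1 to 3, which is 0.178% ± 0.0019 (SD, n = 3) of the control FPKM total. The 2 most abundant members held 9.27% of the members' control sum and the first 10 held 19.2%. No control library stood apart: control 1 held the highest value for 64 members, control 2 for 82 and control 3 for 71. The other features of like level (every control library at 1 FPKM or more and a control mean of at least 10; 31166 features) were highest in control 2 in 37.7% of cases, close to the 37.8% of the members.

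The most abundant member, Cluster-2961.146410, was listed at 0 in all 3 cold libraries and had 225, 294 and 265 FPKM in the control libraries. The second had 0 in each cold library and 222, 137 and 156 FPKM in control 1 to 3. The third had 0 in each cold library and 83.6, 114 and 49.0 FPKM in the control libraries. Below these a group of similar level followed, with control means between 47.2 and 62.4 FPKM at ranks 4 to 10. Rank 8 had the closest agreement among the first 10 members, with 52.3, 49.9 and 47.9 FPKM in control 1 to 3 against 0 in every cold library. Rank 10 had one of the widest ranges among them, with 58.1, 26.6 and 56.9 FPKM in the control libraries and 0 in the cold libraries. Control 2 was thus far below its partners for rank 10 and level with them for rank 8.

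**Figure D1:**
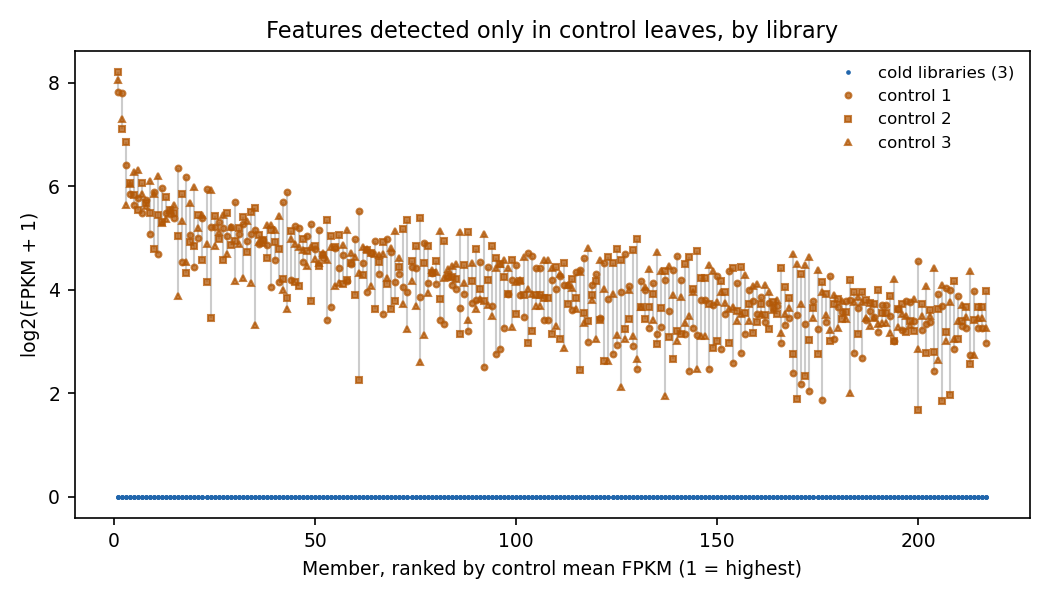
The 217 members ranked by control mean, with log2(FPKM + 1) of each library on the vertical axis. All cold values lie at 0 by selection; the 3 control values of a member are joined by a grey line, whose length shows how far the control libraries differed.

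The limit on the control mean cut through a continuous range. The 5 members closest to the threshold had control means from 10.03 to 10.08 FPKM, and the 5 features closest below it had 9.76 to 9.95. A further 2106 features were also at 0 in cold and at 1 FPKM or more in each control library, with lower means. Another 199 had 0 in all cold libraries and a control mean of at least 10 FPKM but failed in a control library, and in all 199 a control library was itself listed at 0. The lowest control value of any member was 2.17 FPKM, above the limit of 1 FPKM. Allowing up to 0.1 FPKM in cold would add 5 features, and any value under 1 FPKM would add 198. The number depends on how many libraries must meet the rule: it was 372 without cold 1, 349 without cold 2, 378 without cold 3, 328 without control 1, 312 without control 2 and 320 without control 3.

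All 217 members passed the filter of the test over the whole table (a mean of at least 1 FPKM over the 6 libraries), which their selected control level ensures. All 217 were called lower in cold (limma on log2(FPKM + 1), adjusted p between 1.75e-06 and 0.0184), where 19.8% of 153984 tested features were. In all 217 the cold libraries lay below the control libraries, where 28.2% of tested features did. Both counts follow from the selection and carry no further information.

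The members varied more between control libraries than most features of their level. The coefficient of variation (CV) among the 3 control libraries had a median of 37.8% over the members, with quartiles at 21.2% and 57.2%. Over the 29843 features of like level with no cold library at 0 the median was 10.3%. The gap was present within each class of level: 42.9% for members against 13.5% from 10 to 20 FPKM, 34.2% against 10.1% from 20 to 50 FPKM, and 21.9% against 6.30% at 50 FPKM or more. The highest control value was at least 2 times the lowest in 114 members (52.5%), against 9.72% of the other features of like level, and at least 4 times in 34 members. The widest member spanned 11.9-fold between its control libraries, and the tightest 1.05-fold.

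This wide spread was shared with features that had only some cold libraries at 0. The median control CV was 41.1% for the 448 features of like level with 2 cold libraries at 0 and 36.5% for the 875 with 1. It was 32.4% among the cold libraries for the 249 features of the mirror kind, which are at 0 in all control libraries and average at least 10 FPKM in cold. Features of like cold level with no control library at 0 had 9.05%. By class of cold mean the mirror kind had 38.2% from 10 to 20 FPKM, 29.4% from 20 to 50 and 12.95% at 50 or more. The members had 21.9% in the highest class. These medians describe features and were not tested, since features share the same 6 libraries.

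**Figure D2:**
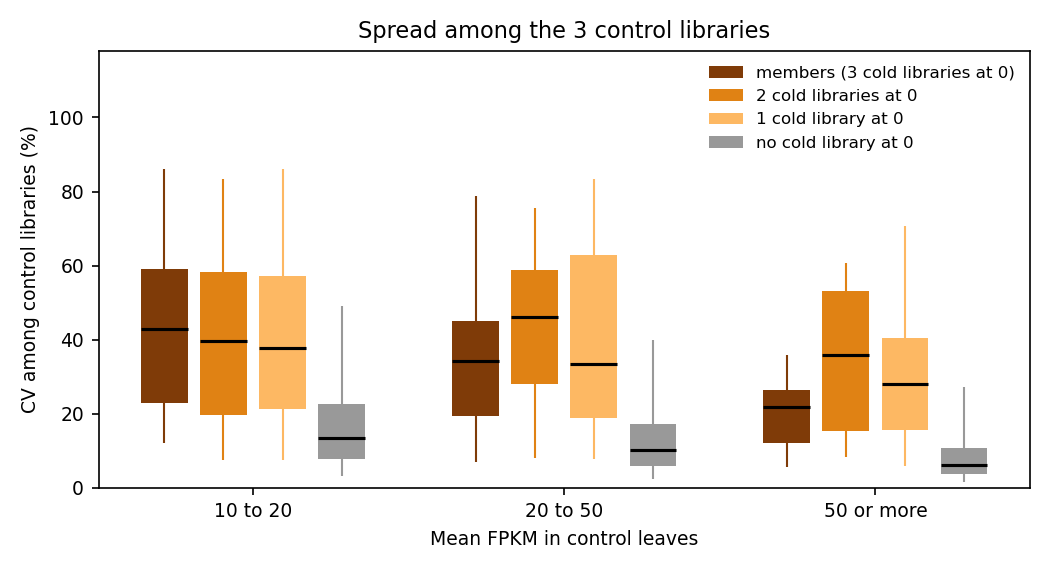
CV among the 3 control libraries by class of control mean, for features with 3 (members), 2, 1 or no cold library at 0. Bars span the quartiles, black lines mark medians and thin lines run from the 5th to the 95th percentile; the medians of all sets with a 0 in cold lie above those of the grey set, which are 13.5%, 10.1% and 6.30%.

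Many member values stood in simple whole-number steps. The pair at ranks 105 and 106 had 20.24, 13.91 and 11.89 FPKM in control 1 to 3. Rank 75 had 20.24, 27.82 and 11.89 FPKM, and rank 102 had 10.12, 13.91 and 23.79 FPKM, so that these 4 members differed by factors of 2 within a library and otherwise had the same values. All 4 were at 0 in each cold library. Ranks 215 and 216 had 8.52, 11.68 and 10 FPKM, and rank 133 repeated the first 2 of these values and had 20 FPKM in control 3. The file holds no fragment counts, so what a step stands for was not tested.

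To count such members, each control value was divided by the commonest ratio of low values in its library to those in control 1 (reached by 29 of 953 features for control 2 and 66 of 1136 for control 3), and the 3 results were compared with whole-number ratios of terms up to 3, within 0.05 on the log2 scale. This held for 55 of the 217 members (25.3%), against 2.55% of the 29843 features of like level with no cold library at 0. Equal FPKM in the 3 control libraries meets none of these ratios, since the estimated depths differ (0.731 and 0.868 of control 1). A feature of very small spread therefore has no pattern, and the median control CV was 10.3% in that set against 37.8% in the members. How far the gap in share follows from the gap in spread was not tested. From 10 to 20 FPKM the shares were 30.8% of members against 3.36%, and from 20 to 50 FPKM 15.2% against 2.497%. Features with only some cold libraries at 0 lay between, at 20.1% with 2 and 13.8% with 1. Of the 2106 control-only features with a control mean under 10 FPKM, 6.55% had such a pattern, so a high share did not go with a 0 in all cold libraries at every level. The commonest pattern was equal values in all 3 control libraries after this division, found in 8 members. These include the identical pair at ranks 215 and 216. With terms up to 2 only, 32 members (14.7%) and 0.767% of the features without a 0 in cold had such a pattern. How many fragments such members rest on, and its part in the zeros in cold, was not tested.

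Some members were copies of each other in the table. In 10 members (4.61%) all 6 values were identical to those of another member, which forms 5 pairs, so the 217 members hold 212 distinct sets of values. No feature outside the group had the values of a member, which follows from the selection, since the rule uses these 6 values alone. Of the other features of like level, 22 (0.0706%) shared all values with some feature. Between members only the 3 control values have to agree for a match, since the 3 cold values are 0 by selection. Of the 31166 other features of like level, 29843 had no cold library at 0, and for these all 6 values have to agree. How far the gap in shares follows from this was not tested. The paired members had control means from 10.1 to 15.3 FPKM, and their second numbers lay 12258 to 99480 apart. Members of a pair are not independent of each other.

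A 0 in all cold libraries was the end of a graded series. Of the 31383 features with every control library at 1 FPKM or more and a control mean of at least 10, 875 (2.79%) were at 0 in 1 cold library, 448 (1.43%) in 2 and the 217 members (0.691%) in all 3. The share at 0 in all 3 fell with level, from 1.02% between 10 and 20 FPKM over 0.643% between 20 and 50 to 0.114% at 50 FPKM or more. With the groups exchanged, 249 of 30368 features of cold leaves (0.820%) were at 0 in all control libraries. These shares were 1.12% and 0.659% in the lower classes and 0.497% at 50 FPKM or more. The class at 50 or more held 8 members, against 36 features of the mirror kind.

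**Figure D3:**
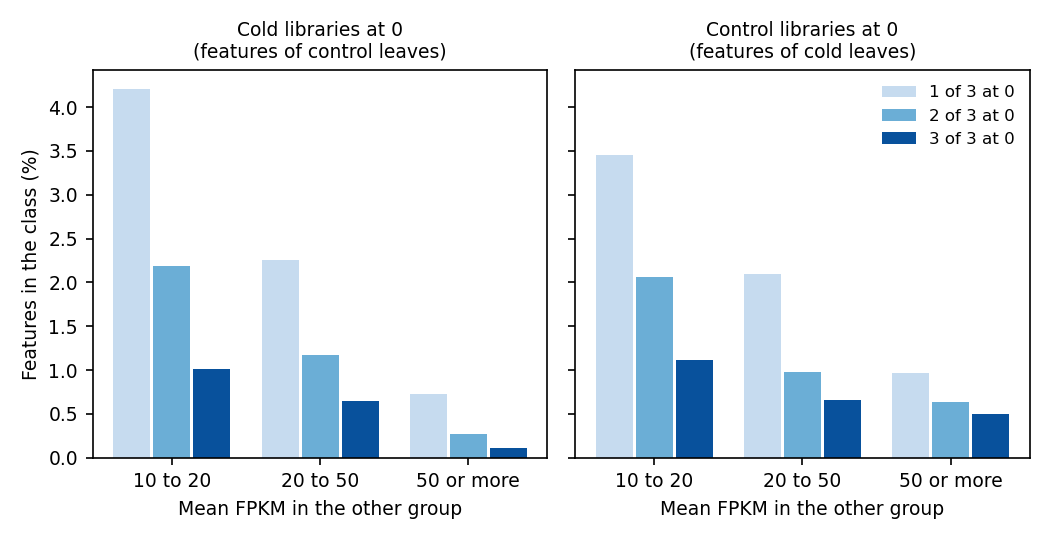
Percentage of features listed at 0 in 1, 2 or 3 libraries of one group, by their mean FPKM in the other group. On the left are features of control leaves at 0 in cold, whose darkest bars are the members (1.02%, 0.643% and 0.114%), and on the right features of cold leaves at 0 in control.

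The same measure can be read in libraries that the selection did not use, though they are separate samples only if the libraries of a group do not come from 1 leaf mixture. The rule was applied to 2 cold and 2 control libraries, and the left-out cold and control library of the same number were then read. Cold 1 was at 0 in 328 of 515 features chosen without it (63.7%), cold 2 in 312 of 475 (65.7%) and cold 3 in 320 of 521 (61.4%). Where neither of the other 2 cold libraries was at 0, 1.01%, 1.25% and 1.01% of features of like level were at 0 in the left-out one. Where 1 of them was, the shares were 36.0%, 39.6% and 35.2%. A 0 in some cold libraries thus went with a 0 in the next.

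The left-out control library was not always high. It was at 0 in 137 of the 515 features (26.6%) for control 1, in 148 of 475 (31.2%) for control 2 and in 153 of 521 (29.4%) for control 3. Where neither of the 2 cold libraries was at 0, these shares were 0.393%, 0.582% and 0.515%. Features at 0 in 2 cold libraries were therefore also listed at 0 in a control library that had not been used to choose them in 26.6% to 31.2% of cases, and in the left-out cold library in 61.4% to 65.7%. The left-out cold value was below the left-out control value in 341, 305 and 352 features (66.2%, 64.2% and 67.6%). It was above in 74, 57 and 61. In 100, 113 and 108 features both were at 0. Where neither of the 2 cold libraries was at 0, the left-out cold value was below in 60.2%, 60.7% and 60.6% of 30274, 30263 and 30456 features. It was above in 11997, 11849 and 11957 of these, and both were at 0 in only 23, 41 and 44. Ties at 0 were thus far more frequent among the chosen features, so the shares below cannot be compared directly.

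The mirror selection gave similar shares. Features chosen as at 0 in 2 control libraries and present in 2 cold libraries were at 0 in the left-out cold library in 21.5% (cold 1), 27.8% (cold 2) and 24.9% (cold 3) of cases. They were at 0 in the left-out control library in 61.4%, 68.6% and 67.8%. No difference between the control-only and the cold-only kind was tested.

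**Figure D4:**
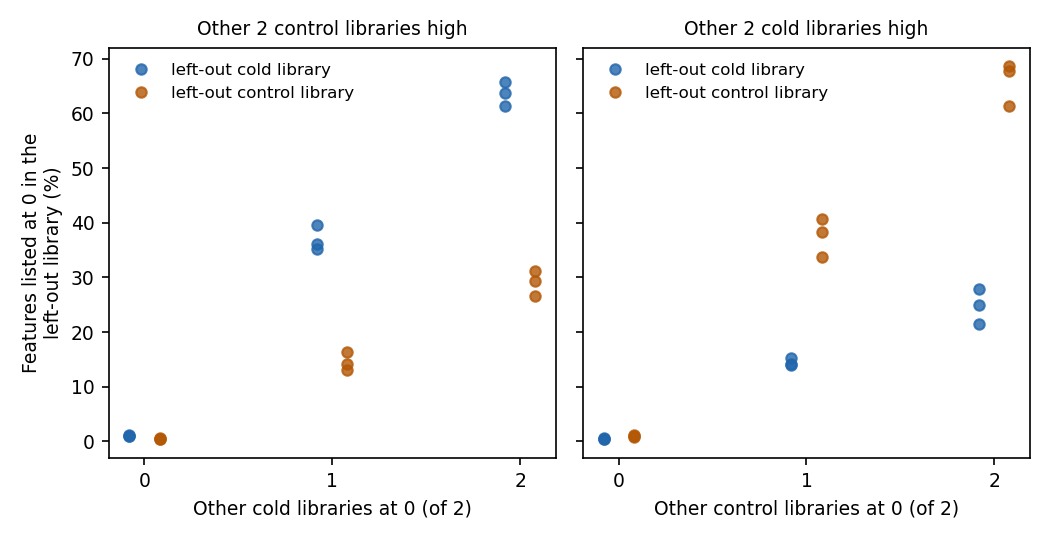
Percentage of features listed at 0 in a library that was left out of the selection, against the number of libraries at 0 among the other 2 of the low group. Each point is 1 left-out library (3 per position); for the control-only selection on the left, cold libraries reach 61.4% to 65.7% and control libraries 26.6% to 31.2% where both other cold libraries are at 0.

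Features numbered next to a member were lower in cold more often than tested features in general. A feature name such as Cluster-2961.146410 holds the number of a component and a number within it. The sources used here do not say what the second number means. There were 246 tested features, none of them a member, 1 number above or below a member in the same component, and 168 members had at least 1. Of these 246 companions, 87 (35.4%) were called lower in cold (limma, adjusted p under 0.05), against 19.8% of all tested features. In contrast 29 (11.8%) were called higher, against 15.8% of all, and 130 did not pass the test. The companions were of higher control level, with a median control mean of 5.53 FPKM against 3.22 FPKM for all tested features. Their median cold mean was 2.67 FPKM against 2.87 FPKM. How far the level enters these shares was not tested. The cold libraries lay below the control libraries in 107 companions (43.5%), against 28.2% of tested features. The median log2 difference, cold minus control, was -0.63 for companions and -0.13 for all tested features. Relative to all features it was -0.50, and -0.51 when the libraries were rescaled by the median of ratios, which moves the median of all features to 0.0085.

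The companions as a whole were present in cold leaves, at a lower level. Their FPKM summed to 3003, 3067 and 2882 in cold 1 to 3, against 4293, 4072 and 4270 in control 1 to 3. The groups did not overlap, and the mean of 2984 ± 94.2 FPKM in cold was 0.709 of the 4211 ± 121 FPKM in control (SD, n = 3 each). The exact two-sided permutation test over the 6 libraries gave p = 0.1, the smallest value that 3 against 3 can give. One companion held 14.3% of the sum, and without it the ratio was 0.644. Of the companions, 18 (7.32%) were at 0 in all cold libraries, against 3.39% of tested features.

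Lower companions were not particular to the members. Counted by pairs of a feature and its tested neighbour, with members kept as neighbours, 37.4% of 254 neighbours of members were called lower. It was 35.5% of 16398 for the 12286 other features of like level that were called lower, and 41.5% of 3576 for those among them that were at least 4-fold lower on the log2(FPKM + 1) scale. It was 22.0% for features of like level that were not called and 19.03% for those called higher. Neighbours of features with 2 cold libraries at 0 stood at 33.6%. These shares describe features that share the same libraries and were not tested.

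**Figure D5:**
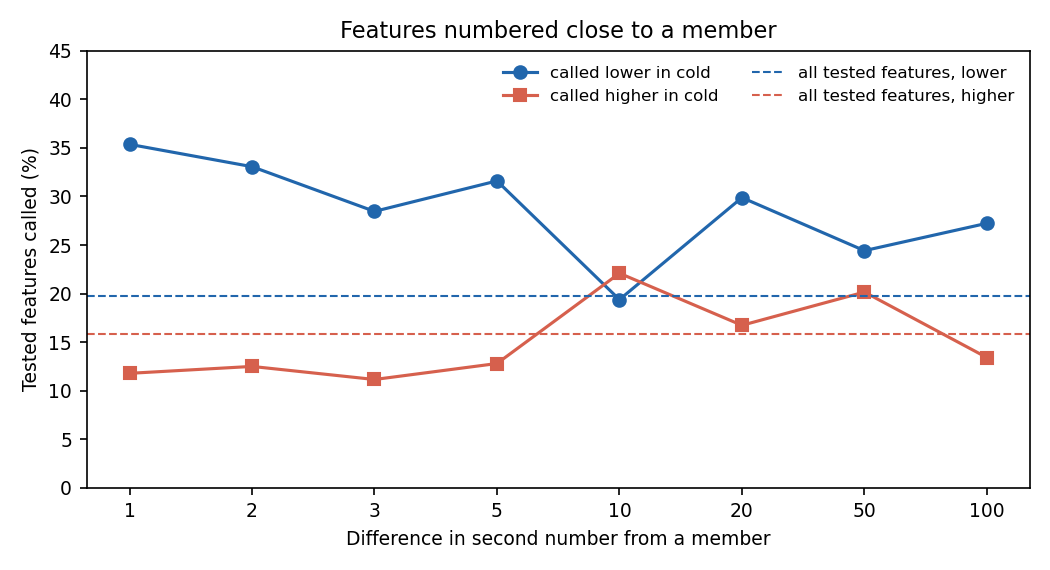
Percentage of tested features called lower or higher in cold by how far their second number lies from that of a member; dashed lines give the shares over all tested features (19.8% and 15.8%). The share called lower is 35.4% at a difference of 1 and 19.4% at 10, and lies between 24.4% and 29.9% at 20, 50 and 100.

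Companions of single members ranged from 0 in all cold libraries to a rise. Of 78 members with a tested companion on both sides, 12 had both called lower, 2 both called higher, 8 one of each, and in 27 neither was called. The same count was not made for other features, so these numbers show nothing particular to the members. The companion of the most abundant member was nearly level, with 12.3, 11.0 and 12.6 FPKM in cold libraries and 13.5, 13.2 and 14.3 FPKM in control libraries (limma adjusted p = 0.248). That of rank 2 was at 0 in all cold libraries like the member itself and had 7.48, 7.94 and 11.96 FPKM in control 1 to 3. That of rank 4 had 13.7, 14.1 and 14.5 FPKM in cold libraries and 41.4, 32.7 and 38.3 FPKM in control libraries, which do not overlap (limma adjusted p = 0.00039). A member at 0 in cold thus stood beside a companion with no called difference, one at a lower level and one also listed at 0.

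The clearest run, singled out after its values were seen, held the members of ranks 71 and 36 among consecutive numbers of the largest component. Rank 71 had 0 in each cold library and 18.7, 20.8 and 23.6 FPKM in control 1 to 3. Rank 36 had 0 in each cold library and 28.4, 32.1 and 29.2 FPKM in the control libraries. The number before rank 71 had 1.69, 1.86 and 0 FPKM in cold libraries and 75.6, 67.7 and 72.3 FPKM in control libraries. Both of these members and that neighbour agreed closely across control libraries, unlike most of the group.

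Of the 2 numbers that lie between these members, the first had 0 FPKM in each cold library and 4.93, 6.10 and 5.58 FPKM in control 1 to 3. The second had 0, 0.14 and 0 FPKM in cold libraries and 42.7, 42.7 and 43.9 FPKM in control libraries, a control CV of 1.65%. The number after rank 36 had 0, 0 and 12.6 FPKM in cold libraries and 98.2, 91.8 and 127 FPKM in control libraries. Cold 3 alone held a value there. All 4 neighbours were called lower in cold (limma adjusted p from 5.46e-06 to 0.00875). Whether they are pieces or copies of 1 transcript was not tested, since no sequence was used here.

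The opposite arrangement occurred as well. Cluster-2961.120959, next to the member of rank 158, had 5.71, 5.21 and 9.10 FPKM in cold libraries and 0.54, 0 and 0.36 FPKM in control libraries, which do not overlap (limma adjusted p = 0.0012). The companion on the other side of rank 158 had 5.70, 4.78 and 2.18 FPKM in cold libraries and was listed at 0 in the control libraries (limma adjusted p = 0.00347). The member between them had 0 in every cold library and 14.8, 12.2 and 9.48 FPKM in control 1 to 3. Cluster-2961.116523, next to the member of rank 78, had 4.25, 9.51 and 6.55 FPKM in cold libraries and was listed at 0 in all control libraries (limma adjusted p = 0.000827). That member had 0 in each cold library and 16.4, 27.7 and 14.4 FPKM in the control libraries.

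Members outside the largest component were few. The largest component, with 299531 features, held 209 members, and 8 (3.69%) lay in 8 other components. Of the other features of like level 0.488% lay outside it, and of all features 18.1%. In 7 of the 8 the member was the only feature of its component. The most abundant of them, Cluster-14761.0, was listed at 0 in all cold libraries and had 51.0, 17.6 and 15 FPKM in control 1 to 3, so that control 1 was about 3.40 times control 3. The eighth shared its component with 1 tested feature, which had 1.43, 0.14 and 0.51 FPKM in cold libraries and 1.39, 1.42 and 1.54 FPKM in control libraries. These overlap, and no difference was called (limma adjusted p = 0.226).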

How the data were processed

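The authors deposited 1 table of FPKM values, rounded to 2 decimals, for 365669 features in 6 libraries. Bowtie2 2.0.6 and TopHat2 2.0.12 appear, with no role stated, per the submitters' processing notes. No source used here gives the reference, the counting program or how features were built. Values were used as deposited. The members and the lists were chosen with earlier results of these data known. Features with a mean of at least 1 FPKM were tested as log2(FPKM + 1) with limma 3.58.1 in R 4.3.3. The test was two-sided, with trended empirical Bayes and without a block. Its p-values were adjusted by Benjamini-Hochberg over 153984 features, with a threshold of 0.05. The procedure was tried on simulated data with normal spread and independent libraries. Such data do not cover groups listed at 0 or libraries from 1 mixture. No fold is given against a group listed at 0. Relative depth came from the commonest ratio of features above 0 in exactly 2 libraries (29 of 953 for control 2 to 95 of 513 for cold 2, within 0.01 on the log2 scale); it limits no single value. The whole-number patterns, the mirror selection and the comparison of neighbours by their own call were chosen after seeing the data. IDs printed are those of the highest member inside and outside the largest component and of the 2 companions called higher with the largest difference, no overlap and a cold mean of at least 5 FPKM; other members go by rank. Gene and marker lists could not be applied without names. Exact permutation used scipy 1.17.1. Same-numbered libraries shared no deviation (r from -0.012 to -0.0022 over features), so the number was not taken as a pairing.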

Additional observations from a re-analysis of the deposited data

How the results depend on the processing

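The number of members followed the limits of the rule: 565 with a control mean of at least 5 FPKM, 74 with at least 20, 415 with every cold library under 1 FPKM, and 312 to 378 without 1 library, where fewer libraries have to meet it. With other scalings it was 185 to 212. The share of companions called lower was 21.4% without a filter and 45.2% at a mean of 5 FPKM (all tested features 9.27% and 28.8%), 43.5% for members of at least 20 FPKM, 41.7% with cold under 1 FPKM and 26.3% to 28.8% without 1 library (all 14.7% to 16.4%). It was above that of all tested features in every alternative run. The share called higher was 7.89% without a filter, above the 7.37% of all features, and 16.5% at a mean of 5 FPKM, below the 26.96% of all. At that filter 14850 features were called higher and 15843 lower over the table. With the replicate number as a block, 29.7% of companions were lower and 9.35% higher, of 23058 lower and 19061 higher features in all; all 217 members were still called lower under the block. Quantile normalization moved the members' share of the control total to 0.180%. With whole-number terms up to 2, 32 members had a pattern in place of 55. Members called lower numbered 216 or 217 in every alternative. This follows from the selection and carries no further information. FPKM give no depth, so the counting error of single members is unknown.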

Other observations

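Second numbers of the 209 members in the largest component had quartiles at 120434, 158932 and 188121. Those of the other features of like level lay at 125100, 148202 and 171792, and those of all its features at 74883, 149765 and 224648. Neighbours of the 249 cold-only features were called higher in 39.0% and lower in 10.8% of 241 pairs (limma), against 11.4% and 37.4% for neighbours of the members. In 4 cases 2 members had consecutive numbers. Of the 246 companions 37 (15.04%) had a log2 difference of -2 or less, against 4.18% of tested features, and 5 (2.03%) of 2 or more, against 3.88%.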
